A study of Mus musculus with 8 samples.

Results

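The activity-dependent immediate early genes described here are Fos, Fosb, Junb, Egr1, Egr2, Egr4, Npas4, Nr4a1, Arc and Ier2, taken by gene symbol from the expression table of the mouse cortex. All 10 were found, among 13996 genes. Cortexes came from male C57BL/6 mice aged 16 weeks. 4 normal mice had received a conventional diet, and 4 high fat diet fed (HFD) mice had received a diet with 60% fat by weight for 8 weeks, after which they had gained weight and tolerated glucose poorly. All mice were killed under ether anesthesia, and 1 library was sequenced from rRNA-depleted RNA of each mouse. The question was which cortical RNAs differ between the diets.

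Immediate early genes are transcribed within minutes of neuronal firing, without the need for new proteins. Calcium that enters through NMDA receptors and voltage-gated channels activates kinases, and these act on the transcription factors CREB, SRF and MEF2 already bound at the genes. The RNAs are short-lived, so in the cortex they are widely used as a record of recent activity. Most members encode transcription factors, and Arc encodes a synaptic protein that drives removal of AMPA receptors.

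In HFD mice 4 of the 10 genes passed the test as lower: Fos fell by 57.6%, Egr2 fell by 42.5%, Arc fell by 41.9% and Ier2 fell by 38.6%, while Fosb, Junb, Egr1, Egr4, Npas4 and Nr4a1 did not pass the test. Fos fell most, from 21.6 ± 1.09 (SD, n = 4) to 9.28 ± 2.02 (SD, n = 4) FPKM, where FPKM counts fragments relative to transcript length and to the size of the library. No member rose past the threshold, although 3 of the 10 had a higher mean in HFD mice. With cerebellar markers, which varied widely among normal mice, as a covariate, 9 of the 10 log2 fold changes were below 0 and 3 members passed. That fit called 3.8% of all genes. Summed cerebellar markers did not overlap between the diets, so the fit cannot separate them from diet. A difference between members was tested only through the family ratios given further on. The test was limma on log2(FPKM + 0.1) with Benjamini-Hochberg adjustment over 13982 genes and a threshold of 0.05. It called 33.1% of all genes tested, 15.3% as lower and 17.7% as higher, so a share of 4 in 10 members called lies near that of all genes, and the share called lower exceeds it. When a fold change of more than 1.5 in either direction was also required, the same 4 members were called, against 2.9% of all genes called lower by that rule, 4.23% called higher and 7.13% called in either direction.

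The DNA just before the start sites is shown for 4 members, because it holds the letters that calcium-activated factors are known to read. Fos and Egr2 represent the members that fell, and Fosb and Egr4 the members of the same families that did not pass the test. The sequences are the 250 bases before the start site from RefSeq on GRCm38.p6, read 5′ to 3′ on the strand of the gene. Capitals mark TGACG on either strand (CGTCA on the other), which is the core of the CREB site. They also mark the CArG box read by SRF, in the exact form CCWWWWWWGG only, where W is A or T. The TATA box is marked in the exact form TATAAA only.
Fos, chr12:85473640-85473889, plus strand: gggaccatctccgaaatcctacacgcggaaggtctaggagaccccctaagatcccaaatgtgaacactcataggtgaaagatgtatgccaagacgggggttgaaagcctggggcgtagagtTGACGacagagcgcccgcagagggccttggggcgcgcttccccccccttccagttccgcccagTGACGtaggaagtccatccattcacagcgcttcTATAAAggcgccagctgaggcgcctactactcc
Egr2, chr10:67537619-67537868, plus strand: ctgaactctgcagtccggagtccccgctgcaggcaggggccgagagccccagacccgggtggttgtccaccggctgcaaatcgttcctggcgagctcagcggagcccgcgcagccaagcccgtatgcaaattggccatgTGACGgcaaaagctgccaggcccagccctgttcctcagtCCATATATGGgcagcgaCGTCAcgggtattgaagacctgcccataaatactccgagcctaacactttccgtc
Fosb, chr7:19310046-19310295, minus strand: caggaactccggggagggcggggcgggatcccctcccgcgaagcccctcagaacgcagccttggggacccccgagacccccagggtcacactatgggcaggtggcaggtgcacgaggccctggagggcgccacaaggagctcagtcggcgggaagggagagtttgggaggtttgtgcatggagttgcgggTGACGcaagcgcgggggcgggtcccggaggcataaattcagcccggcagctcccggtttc
Egr4, chr6:85513590-85513839, minus strand: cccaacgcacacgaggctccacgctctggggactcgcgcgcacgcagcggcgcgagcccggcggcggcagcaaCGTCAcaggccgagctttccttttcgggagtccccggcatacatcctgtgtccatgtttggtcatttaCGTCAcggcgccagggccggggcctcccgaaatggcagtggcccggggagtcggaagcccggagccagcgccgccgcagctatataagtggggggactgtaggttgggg

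Promoter windows were examined for 7 of the 10 members, namely these 4 and Junb, Npas4 and Nr4a1. The RefSeq promoters used held no entry for Arc and Ier2, which both fell. Entries on chromosome 18, where Egr1 lies, were not used for the members. The member counts below thus say nothing of Egr1, Arc or Ier2. TGACG was present in 7 of 7 of their windows, on either strand, against 17.8% of the 32851 windows of that length in the RefSeq table. The RefSeq starts used for Nr4a1 and Npas4 lie 12577 and 345 bases from the start of the representative transcript described below. The full palindrome TGACGTCA, which contains TGACG, was in 0 of the 7 windows and in 1.55% of all windows. Among the 7 windows a CArG box was found in Egr2 alone, starting 72 bases before its start site, and in 1.47% of all windows. The exact letters TATAAA were found in Fos alone, 33 bases before its start site, and in 12.4% of all windows. Other forms of the CArG box and of the TATA box were not searched, nor was DNA further upstream than 250 bases. The Egr4 window holds TATATAA, which is not marked. Fosb, which did not pass the test, has TGACG 60 bases before its start site, and Fos has it at 66 and at 129 bases. A match of these letters describes the window only.

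The genes themselves are compact. In GENCODE M21 on GRCm38 their median span was 4.7 kb, against 26.1 kb for 12490 protein-coding genes tested. The representative transcript, taken by the annotation's APPRIS rank, had 3 introns or fewer in 8 of 10 members, against 21.8% of these genes. Junb and Ier2 have 0 introns, while Npas4 and Nr4a1 have 7. The pentamer ATTTA, part of AU-rich elements that shorten the life of RNAs, was in the 3′ untranslated part of 7 of 10 members and of 68.4% of the genes. Junb overlaps Prdx2, a peroxiredoxin gene on the opposite strand, by 351 bp. Whether strand was used in counting is not stated in the labels or methods, so reads in that overlap could belong to either gene. Prdx2 was 137 ± 1.28 FPKM (SD, n = 4) with the normal diet and 123 ± 9.27 (SD, n = 4) in HFD mice.

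**Figure D1:**
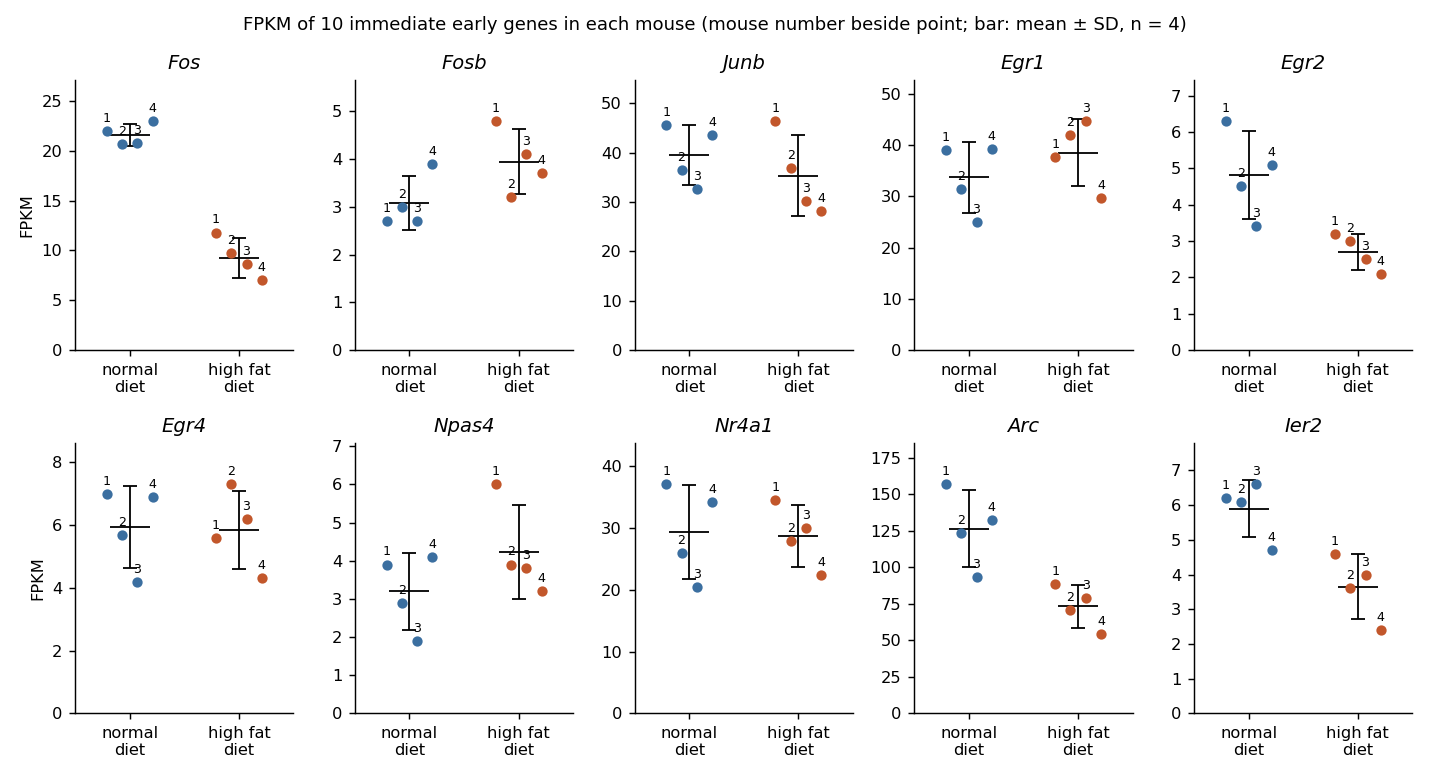
FPKM of each member (y axis, from 0) in the 4 normal mice (blue) and the 4 HFD mice (orange), with the mouse number beside each point and bars for mean ± SD. Fos, Egr2, Arc and Ier2 have no overlap between the diets, and HFD mouse 4 is the lowest of its diet in 9 of the 10 panels.

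Fos (ENSMUSG00000021250.13, chromosome 12 of GRCm38, 85473890 to 85477273) encodes the partner of Jun proteins in the AP-1 factor. Its FPKM was 22, 20.7, 20.8 and 23.0 in normal mice 1 to 4, and 11.8, 9.7, 8.6 and 7.0 in HFD mice 1 to 4. The normal mice lay close together, and the highest HFD mouse was far below the lowest normal mouse. On the log2 scale the change was -1.24 (standard error 0.13, 95% interval -1.53 to -0.94, limma adjusted p = 0.00065), a 2.36-fold decrease. The exact two-sided permutation test over 70 assignments gave p = 0.0286, the smallest p that 4 against 4 mice allow.

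Fosb (ENSMUSG00000003545.3, chromosome 7, 19302696 to 19310051) encodes a close relative of Fos whose truncated form is known to build up with repeated stimulation. It was at a low level, 2.7, 3.0, 2.7 and 3.9 FPKM in normal mice and 4.8, 3.2, 4.1 and 3.7 in HFD mice. The ranges overlapped, and 2 HFD mice lay above all normal mice. The log2 fold change was 0.35 (95% interval 0.01 to 0.69, unadjusted p = 0.0427 and limma adjusted p = 0.0999). Without normal mouse 4, the highest normal mouse, it passed at 0.47 (limma adjusted p = 0.0297).

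Junb (ENSMUSG00000052837.6, chromosome 8, 84974484 to 84978718), a Jun protein that pairs with Fos proteins, was 45.5, 36.4, 32.6 and 43.6 FPKM in normal mice, with 46.4, 36.8, 30.1 and 28.1 in the HFD group. The ranges overlapped, and 2 HFD mice lay below all normal mice and 1 above them. The difference was a log2 fold change of -0.18 (95% interval -0.53 to 0.18, limma adjusted p = 0.42), and -0.58 with the cerebellar covariate (limma adjusted p = 0.176). In the Fos and Jun families the log2 difference between Fos and Fosb in the same mouse was 2.79 ± 0.20 (SD, n = 4) with the normal diet and 1.20 ± 0.29 (SD, n = 4) in HFD mice, without overlap. The ratio of Fos to Fosb was 3.01-fold smaller on average in HFD mice (exact permutation p = 0.0286) but did not pass adjustment over the 15 ratios within the Fos, Jun, Egr and Nr4a families (adjusted p = 0.0612). The ratios were chosen after the values had been seen. Of the 15, 7 did not overlap between the diets and 0 had an adjusted p below 0.05. With 4 against 4 mice the exact p cannot lie below 0.0286, so no single ratio could pass by itself. The adjusted p of 0.0612 is the lowest that 7 such ratios allow, so failing adjustment says little of any 1 ratio.

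The Egr genes encode zinc finger factors that bind GC-rich sites, and of the Egr members only Egr2 passed the test. Egr1 (ENSMUSG00000038418.7, chromosome 18, 34859823 to 34864984) was 39.1, 31.4, 25.0 and 39.3 FPKM in normal mice and 37.7, 41.9, 44.7 and 29.7 in HFD mice. Its ranges overlapped and its log2 fold change was 0.20 (95% interval -0.17 to 0.56, limma adjusted p = 0.37).

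Egr2 (ENSMUSG00000037868.15, chromosome 10, 67535475 to 67542188), which also directs myelination in Schwann cells, was 6.3, 4.5, 3.4 and 5.1 FPKM in normal mice and 3.2, 3.0, 2.5 and 2.1 in HFD mice. Every HFD mouse was below every normal mouse, though HFD mouse 1 and normal mouse 3 were only 2 rounding steps of 0.1 FPKM apart. On the log2 scale the change was -0.80 (standard error 0.19, 95% interval -1.22 to -0.37, limma adjusted p = 0.0117), a 1.74-fold decrease.

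Egr4 (ENSMUSG00000071341.4, chromosome 6, 85511121 to 85513589) was 7.0, 5.7, 4.2 and 6.9 FPKM in normal mice and 5.6, 7.3, 6.2 and 4.3 in HFD mice, with overlapping ranges and means of 5.95 and 5.85 FPKM. Its log2 fold change was -0.02, with a 95% interval of -0.45 to 0.40 (limma adjusted p = 0.942), and -0.54 with the cerebellar covariate (limma adjusted p = 0.267). Egr3, the remaining family member and not among the 10, rose. It was 16.6, 12.8, 11.3 and 19.4 FPKM in normal mice and 27.7, 30.9, 37.2 and 24.8 in HFD mice, which is a log2 fold change of 1.02 (standard error 0.17, limma adjusted p = 0.00301). With cerebellar markers as a covariate Egr3 did not pass, at 0.52 (limma adjusted p = 0.235).

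No ratio between Egr genes within a mouse passed adjustment, which no single ratio could do by itself given the floor of the exact p. Their values are given as a description. The log2 difference of Egr1 minus Egr2 was 2.79 ± 0.13 (SD, n = 4) with the normal diet and 3.79 ± 0.24 (SD, n = 4) in HFD mice, without overlap. Egr2 minus Egr3 went from -1.62 ± 0.23 to -3.43 ± 0.32 (SD, n = 4 each), a 3.52-fold shift, also without overlap. Each had exact permutation p = 0.0286 and an adjusted p of 0.0612 over the 15 ratios. Egr1 minus Egr4 was 2.49 ± 0.04 in normal mice and 2.71 ± 0.14 in HFD mice (SD, n = 4 each), with overlapping values and exact permutation p = 0.0571. Every ratio without overlap includes Fos, Egr2 or Egr3, whose own FPKM did not overlap between the diets. Among single genes, 31.9% of all tested had no overlap, 14.7% lower and 17.2% higher in HFD mice. That share is of single genes and not of ratios.

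**Figure D2:**
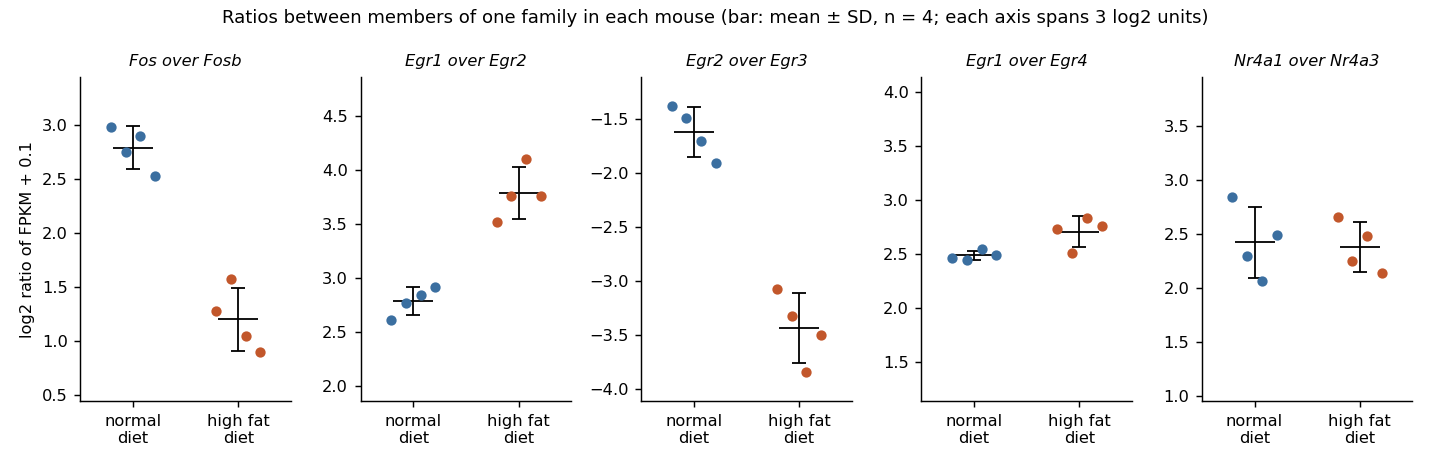
Log2 ratio of FPKM + 0.1 between 2 genes of a family in the same mouse (y axis, each spanning 3 log2 units around its own centre) for normal mice (blue) and HFD mice (orange), with bars for mean ± SD. The ratios of Fos to Fosb, Egr1 to Egr2 and Egr2 to Egr3 separate the diets, and those of Egr1 to Egr4 and Nr4a1 to Nr4a3 overlap.

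Npas4 (ENSMUSG00000045903.8, chromosome 19, 4984355 to 4990316) encodes a bHLH-PAS factor that responds to calcium entry in neurons and adjusts inhibitory synapses. It was 3.9, 2.9, 1.9 and 4.1 FPKM in normal mice and 6.0, 3.9, 3.8 and 3.2 in HFD mice. HFD mouse 1 was the highest of all, and the other three lay within the normal range. The log2 fold change was 0.41 with a wide interval of -0.16 to 0.98 (limma adjusted p = 0.239).

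Nr4a1 (ENSMUSG00000023034.7, chromosome 15, 101254269 to 101274795) encodes an orphan nuclear receptor. It was 37.1, 25.9, 20.4 and 34.2 FPKM in normal mice and 34.6, 27.9, 30.1 and 22.4 in HFD mice, and all HFD mice lay within the normal range. On the log2 scale the change was -0.01 (95% interval -0.44 to 0.41, limma adjusted p = 0.971). It was -0.70 (limma adjusted p = 0.0807) with the cerebellar covariate and -0.33 (limma adjusted p = 0.154) without normal mice 2 and 3.

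Arc (ENSMUSG00000022602.14, chromosome 15, 74669083 to 74672570) had the highest level of the members in both diets. It was 156.9, 123.4, 93.4 and 132.5 FPKM in normal mice and 88.9, 71.1, 79.1 and 54.3 in HFD mice. Every HFD mouse was below every normal mouse, with normal mouse 3 and HFD mouse 1 nearest to each other. The log2 fold change was -0.78 (standard error 0.18, 95% interval -1.18 to -0.39, limma adjusted p = 0.00897), a 1.72-fold decrease.

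Ier2 (ENSMUSG00000053560.4, chromosome 8, 84661331 to 84662852), a nuclear protein induced by growth factors, was 6.2, 6.1, 6.6 and 4.7 FPKM in normal mice and 4.6, 3.6, 4.0 and 2.4 in HFD mice. The diets did not overlap, but normal mouse 4 and HFD mouse 1 differed by only 0.1 FPKM, the step of rounding. On the log2 scale the change was -0.70 (standard error 0.19, 95% interval -1.12 to -0.29, limma adjusted p = 0.0181), a 1.63-fold decrease. For Egr2, Arc and Ier2 the exact permutation test gave p = 0.0286 each, as for Fos. The call of Ier2 was lost without normal mice 2 and 3, at -0.59 (limma adjusted p = 0.119), and with cerebellar markers as a covariate, at -0.68 (limma adjusted p = 0.258). These mice had the highest cerebellar markers, as given further on. Fos, Egr2 and Arc passed in both of these fits. With the covariate the decreases of Egr2 and Arc were larger, at -1.43 (limma adjusted p = 0.0198) and -1.34 (limma adjusted p = 0.0214).

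**Figure D3:**
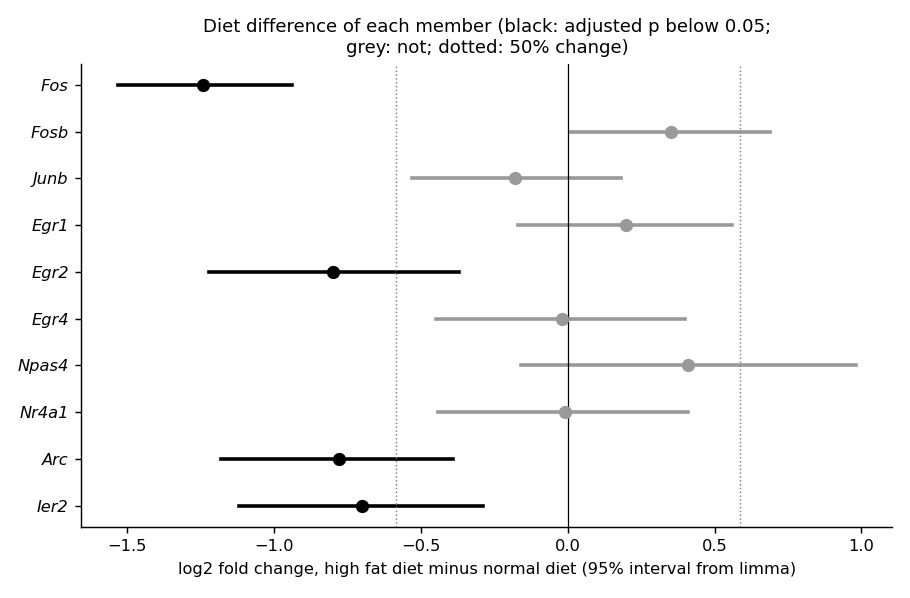
Log2 fold change of each member, high fat diet minus normal diet (x axis), with its 95% interval from limma. Points in black passed the adjusted threshold (Fos, Egr2, Arc and Ier2), grey points did not, and dotted lines mark a 1.5-fold change.

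FPKM makes levels comparable between genes, and the order of the means was alike in its upper part and differed in its lower part. Arc was highest in both diets, at 127 and 73.3 FPKM, and its range did not overlap that of the next gene in either diet. Junb, Egr1 and Nr4a1 followed, between 28.8 and 39.5 FPKM, with overlapping neighbours within each diet. Fos overlapped Nr4a1 in normal mice, at means of 21.6 and 29.4 FPKM. In HFD mice it did not overlap Nr4a1 but overlapped Egr4, at 9.28 and 5.85 FPKM. Ier2 and Egr2 were above Npas4 and Fosb in normal mice and below them in HFD mice, where Egr2 was the lowest of the 10 at 2.70 FPKM, and all neighbours in that lower part of the order overlapped in both diets.

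Within each diet single mice ordered most members alike. HFD mouse 4 had the lowest value of its diet for 9 of the 10 members, and Fosb was the exception. HFD mouse 1 had the highest value for 8, and Egr1 and Egr4 were the exceptions. Among normal mice, mouse 3 was lowest for 7 members, while its Ier2 was the highest of the diet. The mean deviation of the members from their diet mean, on the log2 scale, was -0.35 in HFD mouse 4, 0.28 in HFD mouse 1 and -0.32 in normal mouse 3. The 5 other genes whose deviations were most like this mean, by Pearson correlation over the 8 mice, were a clone-named gene model (ENSMUSG00000097924.2), Cstad, Sult2b1, Zfp641 and Bak1. Their correlations lay between 0.976 and 0.995, and no p is given since they were the highest of all genes tested. The first had values between 0.9 and 1.3 FPKM, where rounding to 0.1 leaves few distinct levels.

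Markers of other brain regions moved with the diets and with these mice. For comparison with the counts below, 15.3% of all genes tested fell and 17.7% rose. Summed FPKM of 9 striatal markers was 242.5 to 433.5 in normal mice and 77.8 to 95 in HFD mice, and 9 of the 9 tested fell. Summed FPKM of 9 cerebellar markers was 56.0, 282.1, 376.8 and 109.9 in normal mice 1 to 4 and 38.2 to 46.6 in HFD mice, and 5 of the 8 tested fell. Normal mice 2 and 3 thus had the highest cerebellar sums, and normal mouse 3 was also lowest for most members. Gabra6, which defines cerebellar granule cells, was listed at 0 in HFD mouse 1. Markers of cortical excitatory neurons, the labelled tissue, were present in each mouse, at 309.7 to 460.4 in normal mice and 505.8 to 596.2 in HFD mice, and 7 of 10 rose. All 8 oligodendrocyte markers fell, from 2104 to 3463 in normal mice to 1451 to 2019 in HFD mice. Summed choroid plexus markers were 343.9 to 728.5 in normal mice, 943.9 in HFD mouse 4 and 21.2 to 77.0 in the other HFD mice, which lay below every normal mouse, and 2 of 6 fell. The part of these markers in the members' differences was not tested. Neither the striatal nor the cerebellar sums overlap between the diets, so RNA of these regions and diet cannot be told apart in these mice. The hippocampal and interneuron sums, given below, do not overlap either. The cerebellar covariate, the mean log2 level of its markers, was 1.425 to 5 in normal mice and 0.4377 to 0.8527 in HFD mice. Its slope thus rests mostly on the normal mice, and its fits only describe how the estimates move. In such bulk tissue fewer cells of a type and less RNA per cell cannot be told apart either.

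Of the other lists of markers, 4 of 7 interneuron genes fell and 2 rose, 3 of 8 astrocyte genes fell and 1 rose, 5 of 5 red cell genes fell, 2 of 4 hippocampal genes fell, and 1 of 6 thalamic genes fell. Summed thalamic markers were 49.1, 115.5, 104.0 and 39.5 in normal mice 1 to 4 and 35.3 to 39.7 in HFD mice, so normal mice 2 and 3 were highest for these as well as for the cerebellar markers. For microglia 0 of 7 passed the test by limma, and 1 of 7 had an unadjusted p below 0.05. For endothelium 1 of 7 rose and 1 fell. Beside these counts, 15.3% of all genes tested fell and 17.7% rose. The lists are short, and their counts were not tested against these shares.

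Other rapidly induced genes were followed through a list of 37, of which 32 were in the table. In HFD mice 11 of the 32 fell and 3 rose, against 15.3% and 17.7% of all genes, and the list's median log2 fold change was -0.21 against 0.003 for all genes. Those past 1.5-fold were Egr3, described above, Klf10, Dusp1 and Dusp5. Dusp1 and Dusp5, phosphatases that switch off MAP kinases, had log2 fold changes of -0.63 (limma adjusted p = 0.00348) and -0.91 (limma adjusted p = 0.00792). Dusp1 was 12.3 to 17.9 FPKM in normal mice and 8.5 to 10.6 in HFD mice. Dusp5 was 6.8, 12.3, 12.8 and 8.3 FPKM in normal mice, highest in the mice with the highest cerebellar sums, and 4.5 to 6.1 in HFD mice, and with the cerebellar covariate its log2 fold change was -0.19 (limma adjusted p = 0.624). Klf10, a zinc finger repressor induced by TGF-beta, fell from 18.4 ± 4.18 to 11.3 ± 1.64 FPKM (SD, n = 4 each; limma adjusted p = 0.0126). Of the relatives of Nr4a1, Nr4a2 was 8.8 to 13.0 FPKM in normal mice and 8.4 to 19.9 in HFD mice (limma adjusted p = 0.144), passing without HFD mouse 3 at 0.77 (limma adjusted p = 0.00696), and Nr4a3 had a log2 fold change of 0.03 (limma adjusted p = 0.81).

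Genes of the late response, which follow the immediate early factors, were in a list of 24, with 23 in the table. Of these 6 fell and 3 rose, 26.1% and 13.0% against 15.3% and 17.7% of all genes, with a median log2 fold change of 0.10. With the cerebellar covariate, which called 3.8% of all genes, 4 of the list passed, and these were lower. Past 1.5-fold were 5 of the falls, in Penk, Rasl11a, Tiparp, Scg2 and Gpr3. Penk, which encodes enkephalins and is also among the striatal markers, was 71.3 to 131.5 FPKM in normal mice and 9.3 to 12.3 in HFD mice. Scg2, a secretogranin of dense-core vesicles, was 123.2 to 148.1 FPKM in normal mice and 78.7 to 87.0 in HFD mice, which is a log2 fold change of -0.74 (limma adjusted p = 0.000206). Rasl11a, a small GTPase, fell from 5.05 ± 0.342 to 1.77 ± 0.126 FPKM and Tiparp, a poly-ADP-ribose polymerase, from 9.05 ± 0.465 to 5.03 ± 0.287 FPKM (SD, n = 4 each). Gpr3, a constitutively active receptor, was 3.6 to 5.2 FPKM in normal mice and 2.1 to 4.0 in the HFD group, with overlap through HFD mouse 3. Its call was lost with the cerebellar covariate (limma adjusted p = 0.0972) and with the replicate block (limma adjusted p = 0.0547).

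Upstream of the members, 16 of 36 kinases, transcription factors and coactivators rose and 4 fell, against 17.7% and 15.3% of all genes, with a median log2 fold change of 0.19. The rises past 1.5-fold were those of Mkl1, Mkl2, Crtc1, Crebbp and Mef2d. Mkl1 and Mkl2, the SRF coactivators, had log2 fold changes of 0.69 (limma adjusted p = 0.00165) and 0.63 (limma adjusted p = 0.00532). Crtc1 and Crebbp, coactivators of CREB, were at 0.64 and 0.62, and Mef2d at 0.59. With cerebellar markers as a covariate the count for this list was 3 risen and 4 fallen, in a fit that called 3.8% of all genes against 33.1% without it. Of the 5 genes named Crebbp alone passed that fit (limma adjusted p = 0.0434). Among 11 dimer partners and corepressors of the members, 4 rose and 3 fell, 36.4% and 27.3% against 17.7% and 15.3% of all genes, and with the cerebellar covariate 1 rose and 2 fell. Rxrg, a retinoid receptor that can pair with Nr4a1, was 5.9 to 12.2 FPKM in normal mice and 1.0 to 2.8 in HFD mice, which is a log2 fold change of -2.28 (limma adjusted p = 0.0012). In normal mice 1 to 4 it was 12.2, 10.1, 8.1 and 5.9 FPKM, the order of the striatal sums (433.5, 357.9, 339.5 and 242.5). The HFD mice did not share that order, and the part of striatal RNA in the fall of Rxrg was not tested.

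Of 12 glucocorticoid-responsive genes 3 rose and 3 fell, 25.0% each against 17.7% and 15.3% of all genes. Their median log2 fold change was -0.02. Zbtb16 and Plin4 rose by more than 1.5-fold, with log2 fold changes of 1.11 (limma adjusted p = 0.000459) and 1.58 (limma adjusted p = 0.00248). Plin4 was at a low level, 0.6 to 1.4 FPKM in normal mice and 1.9 to 3.5 in HFD mice. With an added constant of 1 its log2 fold change was 1.0 (limma adjusted p = 0.00228).

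**Figure D4:**
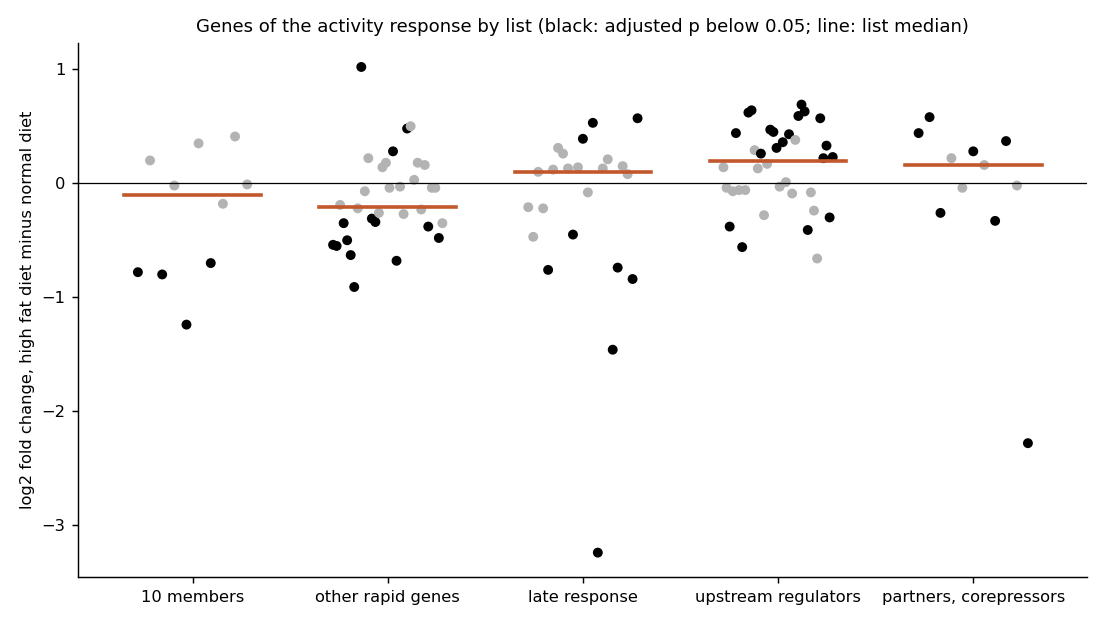
Log2 fold change, high fat diet minus normal diet (y axis), of each tested gene in 5 lists, in black where the adjusted p was below 0.05, with the list median as a line. Of the called genes, 11 of 14 other rapid genes lie below 0 and 16 of 20 upstream regulators lie above 0.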

How the data were processed

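RNA of 8 cortexes, 4 per diet, was sequenced. The authors deposited FPKM, rounded to 0.1. Reads had been trimmed with Trimmomatic after FastQC, aligned to mm10 by STAR and quantified by Cuffnorm against GENCODE M17. Tool versions and strand use: not given in the sources used here. FPKM is normalized for depth and length, so depth per mouse is unknown and no counting interval can be given. Each mouse's FPKM summed to 562431 to 639142.

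Here log2(FPKM + 0.1) was fitted with limma 3.58.1 (R 4.3.3, variance trend, two-sided) over 13982 genes. Genes needed a mean of 1 FPKM or more and no value of 0, which left out 14 genes. All 10 members passed. Fold changes are on the log2(FPKM + 0.1) scale, which understates changes of low genes. Labels do not tell whether mice shared a litter or cage, and p-values measure the spread between mice.

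Members and lists were chosen with earlier results of these data known. All members were named. From each other list the genes called with a fold change of more than 1.5 were named, and a few others were named after their values were seen. Listed genes outside the table were not analysed here. Coordinates come from GENCODE M21, and promoters from RefSeq. The procedure was tested on simulated data. Alternatives were other added constants, filters and scalings, a fit without the trend, blocking on replicate number, a cerebellar covariate and left-out mice.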

Additional observations from a re-analysis of the deposited data

Results flagged for a closer look

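In 54 sets of 4 mice, for 27 genes in each diet, 2 had a mouse that lay far from the other three, and about 1 in 20 such sets does so by chance. Gpr3, a constitutively active receptor of the late response, was 4.0 FPKM in high fat diet fed mouse 3 and 2.1 to 2.4 in the others of that diet. Tiparp was 4.6 FPKM in high fat diet fed mouse 3 and 5.1 or 5.2 in the others. No set of the 10 immediate early genes was among them.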

How the results depend on the processing

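Fos, Egr2 and Arc kept direction and threshold in each alternative that tested them, and Ier2 in all but the 2 given below. With a mean FPKM of at least 5, only 6 members were tested and 2, Fos and Arc, were called, since that filter leaves out Egr2, Ier2, Fosb and Npas4. Leaving out single mice, the count of members called was 4 to 5 (5 without normal mouse 4, by Fosb), that of related genes 11 to 15, of late genes 7 to 9, of upstream regulators 15 to 22, and of partners 6 to 7. The log2 fold change then ran from -1.36 to -1.11 for Fos, from -0.95 to -0.66 for Egr2, from -0.92 to -0.65 for Arc, from -0.83 to -0.52 for Ier2 and from 0.26 to 0.47 for Fosb.

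Ier2 lost its call with cerebellar markers as a covariate (-0.68) and without normal mice 2 and 3 (-0.59). The covariate fit called 3.8% of all genes, against 33.1%, and counted 6 related, 4 late, 7 upstream and 3 partner genes. In it, 9 of the 10 members had a log2 fold change below 0, among them Egr1 (-0.30) and Npas4 (-0.36), whose sign turned without either passing the test, and Fosb was the exception at 0.29. A minimum fold change of 1.5 left 4 related, 5 late, 5 upstream and 1 partner genes. Of 17 called genes named outside the 10, 7 lost their call with the covariate (Egr3, Dusp5, Gpr3, Mkl1, Mkl2, Crtc1 and Mef2d), and these checks were added after seeing the data. The cause of these shifts was not tested. The covariate does not overlap between the diets, so this fit cannot separate it from diet.

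The replicate number as a block called the same 4 members (Fos -1.24, Ier2 -0.70) and 3390 genes, against 4626. Mice with the same number did not deviate together, with correlations over genes of -0.109 to -0.028, so the number does not pair them. Rounding to 0.1 limits the precision for Fosb, Npas4, Egr2 and Ier2.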
